A study of Arabidopsis thaliana with 4 samples.

Results

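The genes described here are those of Arabidopsis with an NB-ARC domain, most of which are annotated as nucleotide-binding leucine-rich repeat (NLR) immune receptors or disease resistance proteins. They were taken as every reference gene with a transcript in the NB-ARC domain family of a list that assigns Pfam protein families to transcripts. This gave 169 genes of the 22263 reference genes in the list. No LRR was listed for 33 of the 169. Of these, 18 had no TIR or RPW8 domain listed either. Within the 18, 7 genes, AT5G45490 among them, are annotated only as P-loop containing nucleoside triphosphate hydrolases. The same family held 351 PacBio isoforms of the 24665 in the list. The plants were wild-type Col-0 with no treatment, grown in a long-day light cycle, and the aboveground parts were collected when rosette growth was complete. Several plants were pooled in each replicate. One tissue was sequenced as 1 PacBio library and as 3 replicates of nanopore PCR cDNA (ONT Pc), named CK1, CK2 and CK3. All samples belonged to the same group, so levels are described over the 3 replicates and no difference between conditions could be tested.

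NLR proteins are intracellular receptors that detect pathogen effectors, either directly or through changes in a host protein that they guard. The NB-ARC domain binds nucleotide and acts as the switch of the receptor, the leucine-rich repeats (LRR) hold it inactive and take part in recognition, and the N-terminal domain signals. A TIR domain at the N terminus marks TIR-type receptors, which signal through EDS1, whereas an RPW8-like domain marks the helper NLRs of the ADR1 and NRG1 type that act with many sensors. Most other plant NLRs carry a coiled coil, and too much activity of an NLR can cause autoimmunity in leaves.

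The nucleotide-binding switch is readable in the genes themselves. The P-loop, written in amino acids as glycine, any 4 residues, glycine, lysine and then serine or threonine, was found in the longest annotated coding sequence of 158 of the 169 genes (93.5%). It was found in 5.77% of the coding sequences of all 22139 reference genes read in the same way. The P-loop belongs to the domain by which the members were chosen, so this difference follows from the choice. The P-loop codons of 9 genes that recur in the results are shown because they are the part that all these receptors share although their N-terminal domains differ. They were read from the TAIR10.1 genome of RefSeq, 5′ to 3′ on the coding strand. Capitals mark the P-loop and the coordinates are those of the capitals.
AT3G04210, chr3:1107014-1107037, minus strand: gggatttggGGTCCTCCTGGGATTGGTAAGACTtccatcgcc
RPP4, chr4:9491880-9491903, minus strand: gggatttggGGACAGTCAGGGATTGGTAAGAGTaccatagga
SNC1, chr4:9504722-9504745, minus strand: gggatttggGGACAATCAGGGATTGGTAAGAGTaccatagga
RPS4, chr5:18325147-18325170, minus strand: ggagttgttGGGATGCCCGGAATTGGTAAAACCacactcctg
RRS1, chr5:18326920-18326943, plus strand: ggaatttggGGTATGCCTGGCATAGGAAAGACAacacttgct
ZAR1, chr3:18936691-18936714, plus strand: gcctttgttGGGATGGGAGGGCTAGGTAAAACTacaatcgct
RPP8, chr5:17466062-17466085, minus strand: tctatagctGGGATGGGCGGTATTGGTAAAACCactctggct
ADR1-L1, chr4:16053364-16053387, minus strand: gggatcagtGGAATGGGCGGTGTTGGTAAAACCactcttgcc
ADR1, chr1:12169668-12169691, plus strand: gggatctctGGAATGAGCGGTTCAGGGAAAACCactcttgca
RPP4 and SNC1, neighbours in 1 cluster, end their P-loop with a serine codon, which was seen in 19 genes, 18 of them of the TIR class. The other sequences shown end with a threonine codon, as 139 genes did. The first match in each coding sequence was taken. Some matches, such as those of AT3G51570 and AT5G41540, may therefore lie outside the NB-ARC domain. Among the 11 genes without a match, 7 were of the TIR class and 8 were listed without an LRR. AT1G72910, the gene with the second highest level per kilobase, was among them.

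The ONT Pc columns held 8122432 reads for CK1, 7386184 for CK2 and 6835029 for CK3. Levels are given as CPM, the reads of a gene scaled to the total reads of its replicate. Since the reads are PCR copies without molecular identifiers, intervals and limits cover counting error only. A count of 0 allowed up to 3 reads, which is 0.369 CPM in CK1, 0.406 in CK2 and 0.439 in CK3. The 4 rosette leaf markers were at 2422 to 27166 CPM. Of the root markers, COBL9, EXPA7 and IRT1 had no reads and CASP1 had 0.143 CPM. The 3 flower markers were between 0.427 and 0.524 CPM. Leaf markers were thus high, and root and flower markers were near 0.

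Most NLR genes were transcribed in these unchallenged plants. Of the 169 genes, 149 had at least 1 read in at least 1 replicate (88.2%), beside 81.9% of all reference genes. More than 3 reads in every replicate were found for 120 genes (71%), beside 67.5%. A mean of at least 1 CPM was reached by 116 genes (68.6%, against 66.4%), and a mean of at least 10 CPM by 42 genes (24.9%, against 38.7%). The family was therefore detected about as often as other genes, with a smaller share of genes at higher levels. The median gene of the family had 3.32 CPM in CK1, 4.06 in CK2 and 3.66 in CK3. The median of all reference genes was 4.68, 5.01 and 5.27 CPM in the same order. In such bulk samples, fewer cells with a transcript and less of it per cell cannot be told apart.

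No read was counted for 20 genes, of which 17 were not listed in the expression table and 3 were listed at 0. By class, 9 of the 20 were TIR genes and 11 had neither a TIR nor an RPW8 domain listed. An LRR was listed for 17 of them, beside 136 of all 169 members. In a cluster with other members of the family stood 16, beside 139 of the 169. Both are near the shares of the whole family. ADR1-L3, annotated as an ADR1-like gene, was among the genes without reads, in contrast to ADR1, ADR1-L1 and ADR1-L2. Another 29 genes had reads but did not exceed 3 in every replicate.

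All members together took 11550 reads in CK1, 14151 in CK2 and 11740 in CK3. This was 0.142% of the reads in CK1 (95% interval, exact, 0.140 to 0.145), 0.192% in CK2 (0.188 to 0.195) and 0.172% in CK3 (0.169 to 0.175). The mean was 0.169% ± 0.0249 (SD, n = 3). CK1 had the lowest share and CK2 the highest, and the intervals hold no variation between plants or libraries.

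Family reads were concentrated in a few genes. The 2 genes with the most reads, AT3G04210 and AT1G72910, took 15.3% ± 1.99 of the family's reads (SD, n = 3). The first 5 took 28.0% ± 1.28, the first 12 took 47.1% ± 0.394 and the first 20 took 59.4% ± 0.566. Even the highest member, AT3G04210, ranked only 827th among all reference genes by CPM.

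Levels of different genes are compared per kilobase of the longest RefSeq transcript. A read can span a transcript, so reads need not rise with length, and the division then favours short genes. AT3G04210, annotated as a TIR-NBS class disease resistance protein, had 59.1 CPM per kilobase in CK1, 79.7 in CK2 and 59.3 in CK3. AT1G72910, annotated as a TIR domain-containing protein, had 46.9, 86.7 and 54.6 in the same order. These 2 genes led the family in every replicate and overlapped each other in range. AT5G45490, one of the genes annotated only as P-loop hydrolases, followed with 24.9, 22.9 and 31.3 CPM per kilobase. These were well under the lowest replicate of AT1G72910. By CPM, AT5G45490, with a transcript of 1714 bases, ranked 9th in the family. It overlaps 2 annotated genes, 1 of them on the opposite strand.

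ZAR1, which pairs with kinase-like partners and assembles into a membrane-bound resistosome, had 16.8 CPM per kilobase in CK1, 25.9 in CK2 and 29.6 in CK3. RLM3, a TIR-type gene needed for resistance to necrotrophic fungi, had 17.8, 18.9 and 19.1, which made it one of the steadiest members. RPP8, a downy mildew resistance gene, had 14.4, 17.1 and 15.4. The replicates of RLM3 all stood above those of RPP8, whereas ZAR1 overlapped both of its neighbours. ZAR1 also overlaps 2 genes annotated on the opposite strand, and whether strand was used in counting is not given in the sources used here, so reads of such partners cannot be told apart.

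Below these came AT1G58602 at 15.1 ± 3.40 CPM per kilobase (SD, n = 3), RPP4 at 14.9 ± 1.15, and ADR1-L1 at 13.4 ± 1.81. Along the first 12 genes by this measure, the replicate ranges of neighbours were apart in 2 of 11 steps, after AT1G72910 and after RLM3. RPP4 was above ADR1-L1 in 3 of 3 replicates with overlapping ranges, and the other 8 steps were neither apart in range nor the same in every replicate. The 12 genes highest by CPM shared 9 with the 12 highest per kilobase, where SNC1, RPP5 and AT1G61190 gave way to AT1G72890, AT1G72940 and AT1G72900.

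**Figure D1:**
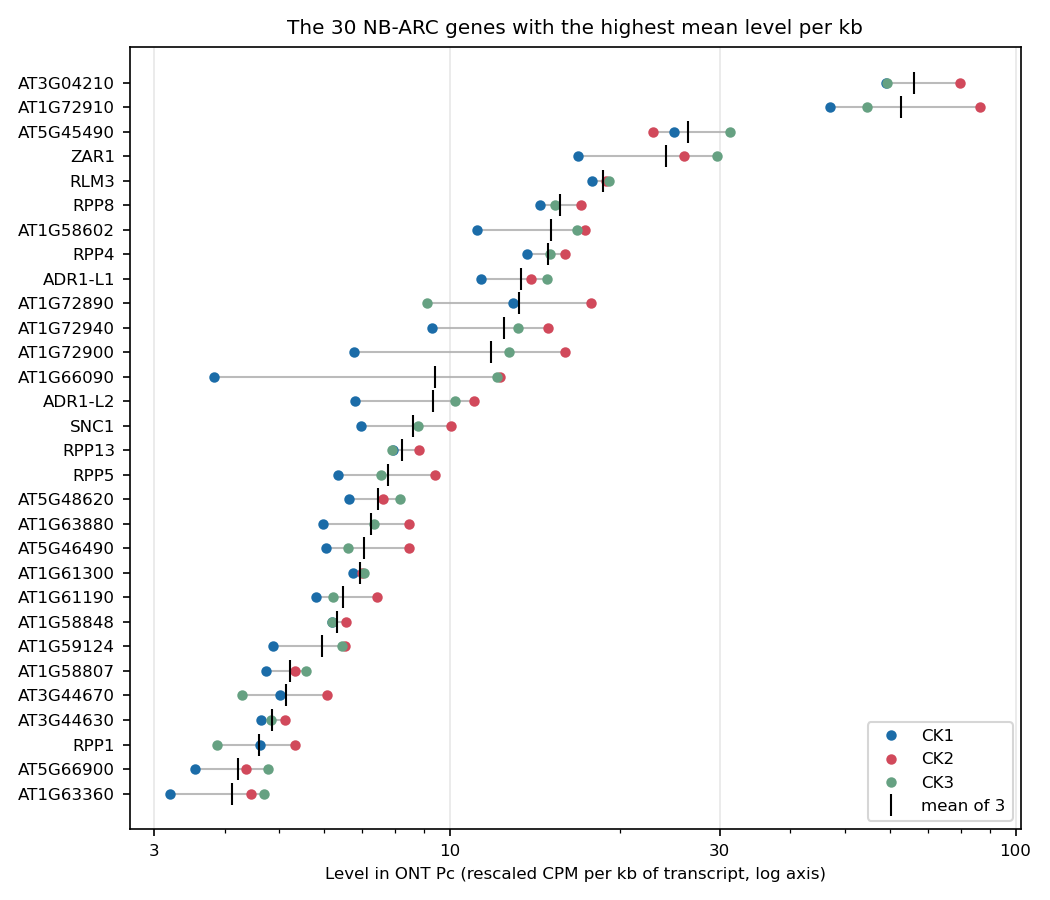
Level of the 30 NB-ARC genes with the highest mean, in rescaled CPM per kilobase of RefSeq transcript on a log axis, with 1 point for each ONT Pc replicate, a grey line over their range and a black tick at the mean of 3. AT3G04210 and AT1G72910 stand apart from the other genes in every replicate, and CK1 is the lowest point of most genes.

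The list placed 99 genes (58.6%) also in the TIR family, 6 (3.55%) in the RPW8 family and 64 (37.9%) in neither. Absence from the TIR family does not show that a protein has no TIR domain. RRS1 and TTR1, annotated as TIR-NBS-LRR class, and CHS1 (AT1G17610), annotated as TIR-NBS class, were in neither. Genes with neither domain are here those with neither one listed. The TIR genes held 57.9% ± 2.09 of the family's reads (SD, n = 3), the genes with neither domain 35.8% ± 1.79, and the 6 RPW8 genes 6.25% ± 0.399. More than 3 reads in every replicate were found for 70 TIR genes, 44 genes with neither domain and all 6 RPW8 genes. The shares of reads of the TIR genes and of the genes with neither domain were thus close to their shares of genes, and their median levels were 0.965 and 0.943 CPM per kilobase.

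The TIR genes without a listed LRR were short and included the 2 highest genes of the family. There were 14 of them, with a median coding length of 1332 bases, beside 3486 bases for the 85 TIR genes with an LRR. They held 24.1% ± 2.09 of the family's reads, and the 85 genes with an LRR 33.8% ± 0.0859. The rest of the 14, without the 2 highest genes, held 8.81% of the mean level of the whole family. The median level was 8.17 ± 3.55 CPM (SD, n = 3) without an LRR and 3.29 ± 0.673 with one. Per kilobase, which raises short genes, the medians were 5.46 and 0.853. The 14 genes ran from 0.0898 to 148 CPM, and 7 of them exceeded 10 CPM. AT3G04210, AT1G72910 and RLM3 were the highest by CPM of the 14, followed by AT1G72940 at 22.3 ± 5.14 CPM, AT1G72890 at 20.8 ± 6.79, AT1G72900 at 16.3 ± 6.44 and AT1G66090 at 15.7 ± 8.03. None of these had an LRR listed, the domain with which many NLRs sense their targets, and AT1G72910, AT1G72940, AT1G72890 and AT1G72900 also lacked a match to the P-loop. AT5G48780 was the lowest of the 14, with 1 read in CK1, none in CK2 and 1 in CK3 at 0.0898 CPM.

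A listing without an LRR does not show that the protein has none. ZAR1 and RPP13, known as LRR proteins, were listed in no LRR family. The split by LRR is therefore a split by this list, and it bears mostly on the 18 genes with neither N-terminal domain and no LRR listed. These had a median of 2.55 ± 0.402 CPM and the 46 such genes with an LRR 3.65 ± 0.449, while per kilobase the medians were 1.08 and 0.943, in the opposite order.

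**Figure D2:**
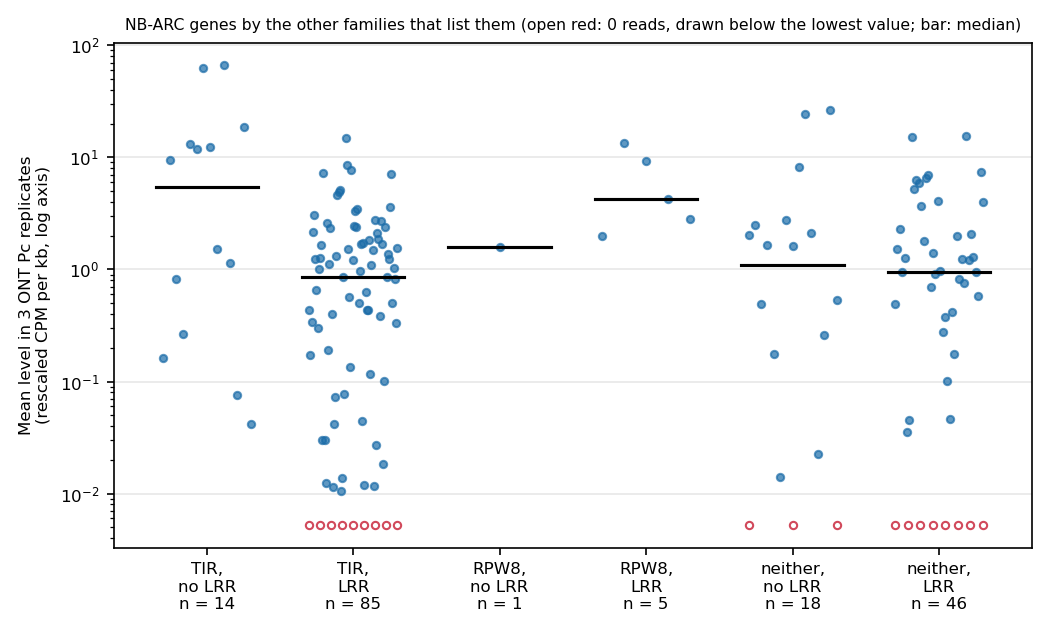
Mean level of each NB-ARC gene over 3 ONT Pc replicates, in rescaled CPM per kilobase on a log axis, by the other families that list the gene. Each point is a gene, black bars are medians and open red points mark genes with 0 reads, drawn under the lowest value. The TIR genes without an LRR have a median of 5.46 and include the 2 highest points, and the division by length raises short genes.

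The RPW8 genes were mostly helper NLRs, which relay signals from sensors. ADR1-L1 had 41.4 CPM in CK1, 50.6 in CK2 and 54.1 in CK3, or 13.4 ± 1.81 CPM per kilobase. ADR1-L2 had 19.3, 31.3 and 29.0 CPM, or 9.35 ± 2.23 per kilobase. ADR1, the founding member, had 4.31, 7.04 and 6.14 CPM, or 1.99 per kilobase. Within the ADR1 group, ADR1-L1 stood above ADR1-L2 per kilobase in every replicate, and both were far above ADR1. ADR1-L1 overlaps 3 genes annotated on the opposite strand. AT5G66900 and AT5G66910, annotated as CC-NBS-LRR class proteins but listed with RPW8, had 12.3 ± 1.81 and 8.18 ± 1.68 CPM. DAR5, which joins RPW8 to a LIM domain, had 4.19, 3.93 and 3.37 CPM and was the only RPW8 gene that was highest in CK1.

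Of a list of 24 sensor NLRs, 23 exceeded 3 reads in each replicate. The median of the list was 10.9 CPM, and 2.56 CPM per kilobase. The exception was RLM1, a resistance gene to the fungus Leptosphaeria maculans, with 1 read in CK1, 0 in CK2 and 1 in CK3. The list is one of well studied genes, and the members were picked with levels of these data known, so its count describes these 24 genes only.

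Sensors that guard known host proteins were at moderate levels. RPS2 and RPM1 both guard RIN4. RPS2 had 5.42, 6.63 and 9.07 CPM in CK1, CK2 and CK3, or 1.99 per kilobase, and RPM1 had 3.32, 3.38 and 3.95 CPM, or 0.960 per kilobase. SUMM2, which monitors a MAP kinase cascade, had 5.91, 7.04 and 6.29 CPM. Each of these 3 genes varied less than 2-fold between replicates, and none came near ZAR1 in level per kilobase.

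Genes for resistance to downy mildew and other leaf pathogens spanned a wider range. RPP4, SNC1 and RPP5 belong to the cluster treated further on. RPP1 had 25.2, 29.1 and 21.2 CPM, and RPP13 had 25.1, 27.9 and 25.0 CPM. RPS6, a receptor for a bacterial effector, had 16.0, 18.5 and 19.5 CPM. WRR4, a white rust resistance gene, had 7.02, 13.0 and 13.6 CPM, with CK1 well below the other replicates. RPP13 and RPS6 had ratios of the highest to the lowest replicate of 1.11 and 1.21, RPP1 of 1.36 and WRR4 of 1.88. LAZ5 had 8.25, 10.4 and 14.5 CPM, LOV1, which confers sensitivity to the fungal toxin victorin, 7.26, 7.18 and 6.73 CPM, and VICTR 3.57, 5.14 and 4.39 CPM. LAZ5 was highest in CK3 and VICTR in CK2. TAO1 had 5, 12 and 14 reads, too few for a firm level. AT4G19500 and AT4G19510 had 10.8 ± 0.827 and 16.4 ± 3.98 CPM, AT1G50180 had 1.41 ± 0.356 and AT5G11250 had 6.94 ± 2.47.

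Some NLRs act as pairs encoded back to back, where one member carries an integrated decoy domain and the other signals. Neighbouring members with their starts facing each other within 3 kb, or overlapping by no more than 100 bases, formed 12 pairs. In 7 of the 12 the annotated starts were within 100 bases. Both members exceeded 3 reads in each replicate in 7 pairs, and in all 7 the same member was higher per kilobase in 3 of 3 replicates. By reads, without division by length, this held in 3 pairs, and in the other 4 the order was not the same in every replicate. The stretches between the starts are shown for 3 pairs because they mark how little sequence separates the transcripts. They are on the plus strand of TAIR10.1, and none held the W-box letters described further on.
RPS4 and RRS1, chr5:18326176-18326202, plus strand: tgagatttgagtggttgaatgtccaat
TTR1 and AT5G45060, chr5:18181974-18182037, plus strand: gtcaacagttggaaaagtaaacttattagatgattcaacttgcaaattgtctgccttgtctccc
AT1G72840 and AT1G72850, chr1:27413852-27413880, plus strand: ggcagcttctactcatcgctttctttggc
RPS4 and RRS1 are such a pair, in which RRS1 carries a WRKY domain that serves as a decoy. RPS4 had 2.33 CPM per kilobase in CK1, 2.50 in CK2 and 2.40 in CK3. RRS1 had 0.846, 1.12 and 0.851 in the same order. RPS4 was 2.57 times RRS1 per kilobase by the ratio of means, with a log2 ratio of 1.31 ± 0.17 (SD, n = 3, 0.5 CPM added). The ratio of mean CPM was 1.79. The ranges of the partners were far apart although only 27 bases lie between their starts.

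TTR1, which also has a WRKY domain listed, and AT5G45060 form a pair of the same layout with 64 bases between the starts. TTR1 had 1.09, 1.70 and 1.10 CPM per kilobase and AT5G45060 had 1.76, 1.81 and 1.53. Here the gene with the WRKY domain was again the lower one in 3 of 3 replicates, but the ranges overlapped and the ratio of means was 0.762. AT4G12010 and WRKY19, which carries WRKY and kinase domains, overlap by 50 bases. AT4G12010 had 0.738, 1.04 and 0.807 CPM per kilobase and WRKY19 had 0.249, 0.443 and 0.570. Per kilobase the gene with the WRKY domain was lower in all 3 pairs. By reads, WRKY19 had 25 in CK3 against 23 for AT4G12010, so in CK3 the order of that pair turned with the division by length.

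The other pairs showed both orders. AT1G72840 had 0.193 ± 0.0699 CPM per kilobase and AT1G72850 had 0.814 ± 0.213, a ratio of means of 0.237. AT4G36150 had 0.965 ± 0.0880 and AT4G36140 0.502 ± 0.292, the latter with 10 reads in CK1, 32 in CK2 and 17 in CK3. AT3G14470 had 0.375 ± 0.0448 and AT3G14460 0.277 ± 0.0710. AT1G56520 had 1.25 ± 0.403 and AT1G56540 0.662 ± 0.208, with 2507 bases and another gene between them.

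CSA1 and DAR4, also known as CHS3, face each other across 3544 bases. DAR4 has a LIM domain listed, and mutant forms cause chilling sensitivity. CSA1 had 6.16, 7.18 and 7.17 CPM, or 1.71 per kilobase, and DAR4 had 6.03, 7.45 and 6.29 CPM, or 1.24 per kilobase. In the AT1G17600 group, CHS1, a gene whose mutants are also sensitive to chilling, had 6.07 ± 1.42 CPM and AT1G17600 2.09 ± 0.429. These models overlap on opposite strands over much of their length, so their reads may not be separable. AT1G17615 had 1 read in CK1, 4 in CK2 and 0 in CK3.

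**Figure D3:**
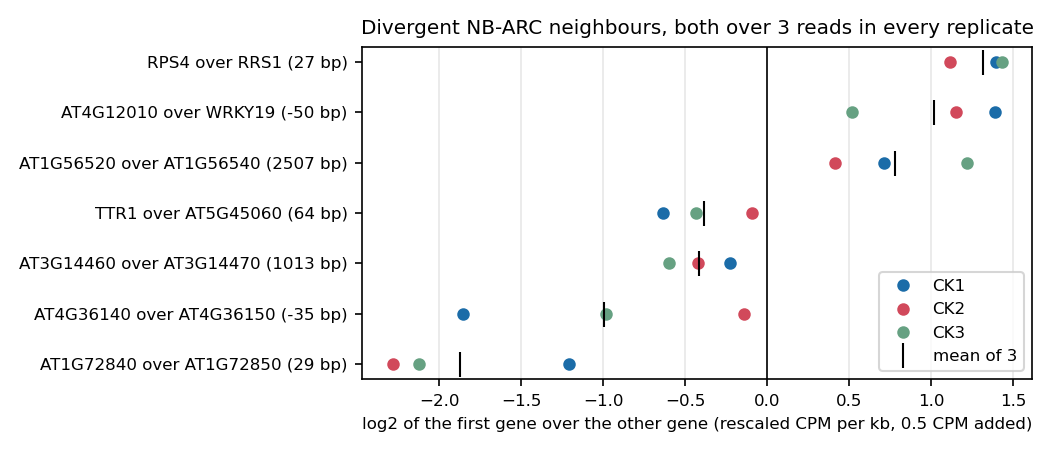
log2 ratio of the first to the other gene in each of 7 divergent pairs, from rescaled CPM per kilobase with 0.5 CPM added, with 1 point for each ONT Pc replicate and a tick at their mean. Numbers in brackets are bases between the annotated starts, negative where the genes overlap. RPS4 lies above RRS1 by a mean of 1.31, and no pair crosses 0.

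Members of the family often lay near one another. With neighbours up to 200 kb apart joined, whether or not they were related, 139 of the 169 genes fell into 33 clusters. The other 30 stood alone. Chromosome 1 held 57 members, chromosome 2 held 5, chromosome 3 held 18, chromosome 4 held 29 and chromosome 5 held 60. In 1 cluster no member had reads. The 3 clusters with the most CPM held 33.9% of the mean level of the family.

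The cluster of RPP4, SNC1, RPP5 and RLM3, chr4:9488466-9565569, had 8 members, each over 3 reads in all replicates, and 12.9% of the family's level. SNC1, the receptor whose activation causes dwarfed, autoimmune plants, had 34.1 CPM in CK1, 49.3 in CK2 and 43.0 in CK3. RPP4 had 50.6, 59.0 and 55.6 CPM, and RPP5 had 33.4, 49.4 and 39.6 CPM. The other 4 members, AT4G16900, AT4G16960, AT4G16920 and AT4G16940, ranged from 0.712 to 5.41 CPM. Of the 31-base words of SNC1, 24.9% were shared with RPP5, and for RPP5 36.4% were shared with AT4G16920.

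The cluster of AT1G72910, chr1:27409196-27445997, had 9 members and 10.7% of the level. AT1G72910 alone had 111 of the summed 181 CPM. Its neighbours AT1G72890, AT1G72900 and AT1G72940, on the same strand and also without an LRR, had 13.3, 11.8 and 12.5 CPM per kilobase, while AT1G72870 had 0.265. The cluster of AT1G58602, chr1:21690642-21999632, had 10 members and 10.2% of the level. AT1G58807 and AT1G59124 in it shared 100% of their 31-base words, and AT1G58848 and AT1G59218 shared 87.5% and 87.8%. Reads of these 4 genes may have been split by the counting in a way that the table cannot show, and their single values, 21.3, 24.3, 25.7 and 15.0 CPM, are uncertain. In the whole family 7 genes shared over 50% of their words with another member, 33 shared over 10%, and 53 overlapped another annotated gene.

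The replicates of the same tissue did not hold the family at 1 level. The summed level was 1422 CPM in CK1, 1916 in CK2 and 1718 in CK3. Among the 116 members with at least 20 reads, 103 were higher in CK2 than in CK1, beside 56.7% of all reference genes with as many reads. The median log2 ratio of CK2 to CK1 was 0.39 over the members and 0.05 over all genes. For CK3 over CK1 the medians were 0.23 and 0.10, and for CK3 over CK2 they were −0.13 and 0.05. CK1 was the lowest replicate of 86 members, CK3 of 24 and CK2 of 6, beside 40.7%, 25.6% and 33.7% of all genes in the same order.

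This pattern was seen in each domain class. CK2 exceeded CK1 in 61 of 66 TIR genes, 37 of 44 genes with neither domain listed and 5 of 6 RPW8 genes. NLR transcripts are long, with a median of 3611 bases against 1665 for all genes, and length was therefore set beside the result. Among transcripts over 4000 bases the median log2 ratio of CK2 to CK1 was 0.39 for 48 members and 0.15 for 581 other genes. Among those up to 2000 bases it was 0.45 for 10 members and 0.04 for 8932 others. The part of length in the result was not tested.

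Markers of an active immune response followed the same order only in part. PR1, a salicylic acid marker, had 49.6 CPM in CK1, 44.9 in CK2 and 8.34 in CK3. PR2 had 142, 255 and 81.8 CPM and PR5 had 64.5, 91.3 and 44.5 CPM. PR2 and PR5 were highest in CK2, as the family's sum was, and PR1 was highest in CK1. All 3 were lowest in CK3, where the family's sum was between those of the other replicates. FRK1, an early response gene, had 0, 3 and 0 reads. The part of the PR genes in the NLR pattern was not tested.

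**Figure D4:**
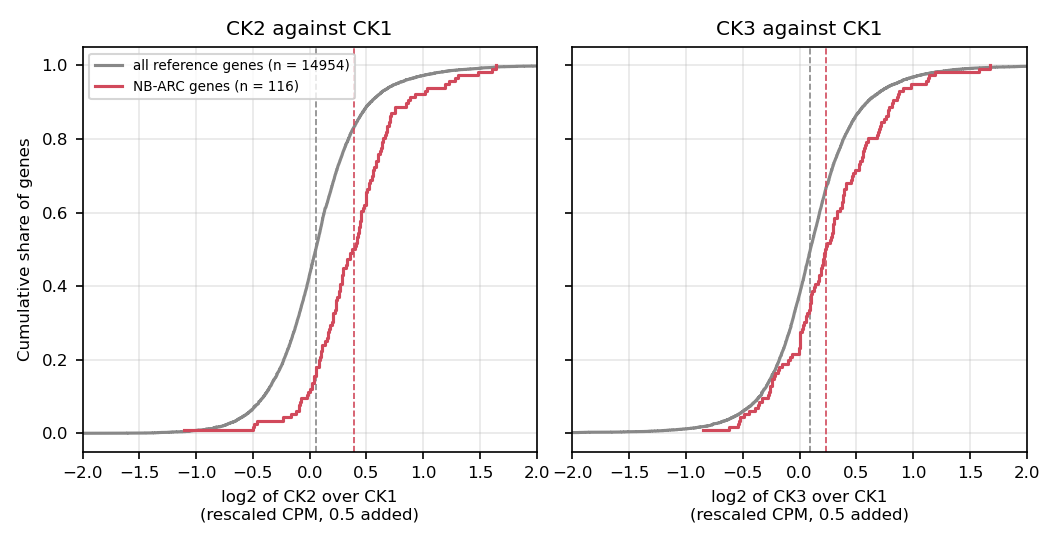
Cumulative share of genes by the log2 ratio of CK2 (left) or CK3 (right) to CK1, from rescaled CPM with 0.5 added, for the 116 NB-ARC genes and the 14954 reference genes with at least 20 reads. Dashed lines mark medians, and the curve of the NB-ARC genes lies to the right, at 0.39 against 0.05 for CK2 and 0.23 against 0.10 for CK3.

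A ratio of the highest to the lowest replicate above 2 was found for 14 of the 116 genes (12.1%), beside 8.79% of all reference genes. CK1 was the lowest replicate of 12 of the 14. Without CK1 the count was 1 (0.893%, against 4.36% of all genes), without CK2 it was 5 (4.5%, against 4%) and without CK3 it was 10 (8.77%, against 3.19%). The share of members was thus below that of all genes when CK1 was left out. The largest ratio was that of AT5G41750, a TIR-NBS-LRR gene with 28 reads in CK1, 87 in CK2 and 83 in CK3, or 3.45, 11.8 and 12.1 CPM, a ratio of 3.20. AT1G66090, a TIR-NBS gene, had 6.40, 20.4 and 20.2 CPM, a ratio of 3.03. In both genes CK2 and CK3 were alike and CK1 stood apart. AT4G36140 had a ratio of 2.79, AT1G61310 of 2.48 and AT5G51630 of 2.43, each with 8 to 10 reads in CK1 and its highest value in CK2. RLM3, RPS4, RPM1, LOV1 and RPP13 were on the steady side, with ratios of 1.07, 1.07, 1.16, 1.07 and 1.11.

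The partners of NLR signalling were all present. Each of 17 listed genes exceeded 3 reads in each replicate, beside 67.5% of all reference genes. Their median was 19.5 CPM. Over the 16 with a RefSeq transcript length the median was 7.48 CPM per kilobase, above the 2.56 of the sensor list. For TIR-type receptors, the hub EDS1 had 18.5, 19.4 and 20.8 CPM in CK1, CK2 and CK3. Its partners PAD4 and SAG101 had 40.5, 52.9 and 34.2 CPM, and 11.4, 14.8 and 19.5 CPM. AT3G48080 had 9.77 ± 2.22 CPM. EDS1 thus differed little between replicates, while PAD4 was highest in CK2 and SAG101 in CK3.

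Among guarded proteins and adaptors, RIN4 had 46.1 ± 5.48 CPM and PBS1 had 17.0 ± 1.82. NDR1, which acts with coiled-coil receptors, had 31.3 ± 4.76. The pseudokinases that work with ZAR1 were lower, ZED1 with 5.17, 12.9 and 9.66 CPM and RKS1 with 7.26, 6.90 and 8.78 CPM. ZED1 was more than 2-fold higher in CK2 than in CK1. Of the chaperones that stabilise NLRs, SGT1B had 60.0 ± 3.12 CPM, SGT1A 41.5 ± 6.02, HSP90.2 35.8 ± 5.19, RAR1 11.7 ± 0.628 and HSP90.1 1.66 ± 0.0835. The negative regulators SRFR1, CPR1 and BON1 had 20.9 ± 0.871, 24.7 ± 0.997 and 7.97 ± 1.63 CPM. Of the 17 partners 14 were higher in CK2 than in CK1, beside 56.7% of all reference genes with at least 20 reads. The median log2 ratio of CK2 to CK1 was 0.15 for the partners and 0.05 for all genes. CK3 was the highest replicate of 11 partners and CK2 of 5, beside 43.5% and 34.7% of all genes.

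WRKY transcription factors, which act in immune responses, bind the W-box. Its letters TTGACC and TTGACT were searched on both strands in the 250 bases before each annotated start. At least 1 match was found for 75 members (44.4%), beside 28.7% of 22140 reference genes, and 2 or more for 20 members (11.8%), beside 6.15%. Members with a match had a median of 2.70 CPM (n = 75) and those without 3.83 CPM (n = 94). Presence of the letters did not go with a higher level. The stretches before the 2 highest genes and before AT5G17680, the member with the most matches, are shown in TAIR10.1, 5′ to 3′ towards the start of the gene, with the matches in capitals.
AT3G04210, chr3:1108253-1108502, minus strand: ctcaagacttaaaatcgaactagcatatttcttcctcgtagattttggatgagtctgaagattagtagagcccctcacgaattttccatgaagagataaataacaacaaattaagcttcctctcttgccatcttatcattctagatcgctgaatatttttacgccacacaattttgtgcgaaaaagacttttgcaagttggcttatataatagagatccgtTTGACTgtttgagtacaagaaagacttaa
AT1G72910, chr1:27435056-27435305, plus strand: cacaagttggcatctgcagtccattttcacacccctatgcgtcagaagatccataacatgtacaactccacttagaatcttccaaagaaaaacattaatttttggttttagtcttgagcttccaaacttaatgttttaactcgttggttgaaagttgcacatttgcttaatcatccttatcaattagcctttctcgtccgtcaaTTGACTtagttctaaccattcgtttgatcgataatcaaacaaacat
AT5G17680, chr5:5822631-5822880, plus strand: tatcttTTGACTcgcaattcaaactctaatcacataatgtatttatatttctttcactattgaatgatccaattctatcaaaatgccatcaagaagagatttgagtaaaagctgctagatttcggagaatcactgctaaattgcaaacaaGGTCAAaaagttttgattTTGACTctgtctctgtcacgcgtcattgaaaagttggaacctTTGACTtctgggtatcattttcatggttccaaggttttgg
AT3G04210 and AT1G72910 each had 1 match. AT5G17680 had 4, in a stretch that overlaps a neighbouring gene, and was chosen for this number after values were seen. It had 1 read in CK1, 3 in CK2 and 0 in CK3. A match is a description of the letters and not a binding site.

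PacBio isoforms of the family numbered 351 at 81 loci. This was 1.42% of the isoforms and 1.10% of the loci in the list, while the 169 genes were 0.759% of its reference genes. The loci had a median of 3 isoforms and a mean of 4.33, beside 2 and 3.35 over all 7368 loci. The list gives isoforms and no counts of reads, comes from 1 library, and does not pair loci with genes, so PacBio isoforms could not be set beside ONT Pc levels gene by gene.

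A few loci had many isoforms. PB.10454 had 35 isoforms with NB-ARC, PB.1328 had 30, PB.1329 had 21 and PB.9314 had 13. The 5 loci with the most held 109 isoforms (31.1%), and 20 loci had a single one. In PB.10454, 27 of the 35 carried a TIR domain and 33 an LRR. None of the 13 isoforms of PB.9314 carried an LRR, and 9 of them carried a TIR domain. By type, 46 loci were of the TIR type with 196 isoforms, 3 of the RPW8 type with 17, and 32 of neither type with 138.

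Many isoforms kept NB-ARC without an LRR. There were 110 of 351 (31.3%, exact 95% interval 26.5 to 36.5), while 65 of the 370 reference transcripts of the family lacked one (17.6%, 13.8 to 21.8). Isoforms of 1 locus share their source, so these intervals are narrower than the true uncertainty. Outside the 5 loci with the most isoforms the share was 65 of 242, or 26.9%. At 22 loci isoforms with and without an LRR stood side by side, at 43 loci all had an LRR and at 16 loci none did. A TIR domain was listed for 149 isoforms (42.5%) and 225 reference transcripts (60.8%).

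The reverse was also seen, with isoforms at the same loci that lacked NB-ARC. There were 329 of them at 41 loci, of which 40 carried a TIR domain, 80 an LRR and 222 neither. The largest part came from PB.6365, with 93 isoforms that lacked NB-ARC, a TIR domain and an LRR, and only 2 with NB-ARC. Of the 93, 37 were listed in the AAA ATPase family. Loci are not paired with genes, so whether PB.6365 joins more than 1 gene cannot be told. PB.10951, with an RPW8 domain, gave 69 and PB.10520 gave 37. The isoforms of PB.10951 without NB-ARC were listed in families of unrelated proteins, with 14 in protein phosphatase 2C and 8 in K+ potassium transporter, so this locus may join more than 1 gene. Without PB.6365 and PB.10951 there were 167 isoforms, 64 of them with neither domain. Of these 64, 37 came from PB.10520. There 27 isoforms without NB-ARC were listed in the protein kinase family, so PB.10520 may also join more than 1 gene. By contrast, no listed reference transcript of a member gene lacked NB-ARC. RLM3 had the most listed reference transcripts, 13.

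**Figure D5:**
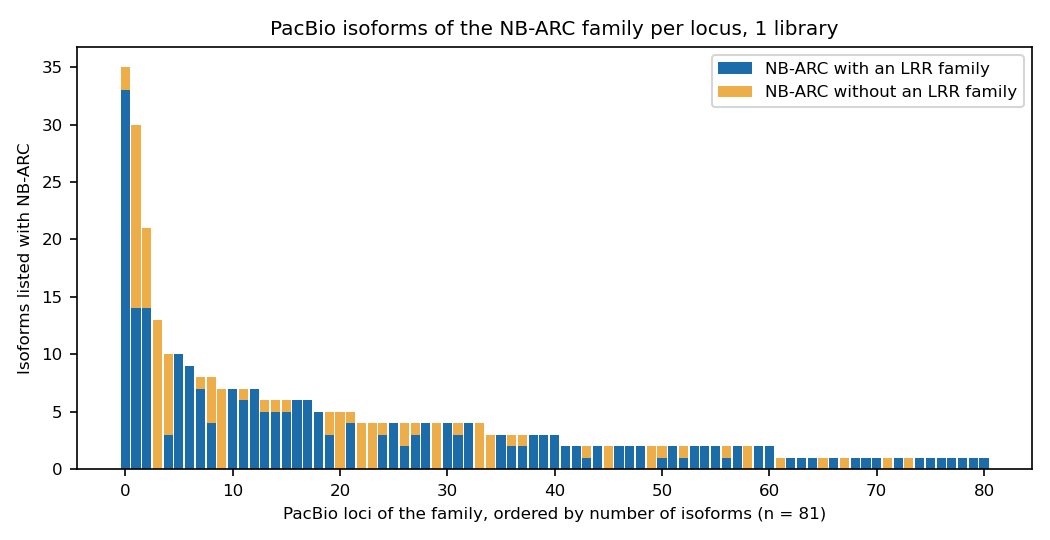
Number of PacBio isoforms with an NB-ARC domain at each of 81 loci, ordered from most to fewest, with isoforms that also carry an LRR in blue and those without in yellow, from 1 library. The first locus reaches 35 isoforms, and loci with both colours lie beside loci of 1 colour.

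The TIR domain also occurred outside the family. The list held 135 genes with a TIR domain, of which 99 had NB-ARC and 36 did not. Over 3 reads in each replicate were found for 13 of the 36, beside 70 of the 99 and 67.5% of all reference genes. Together the 36 had 497 ± 93.2 CPM, against 978 ± 168 for the 99. The median of the 36 was 0.0205 CPM, so a few genes held most of their sum. The RPW8 family held 11 genes, and the 5 outside NB-ARC summed to 109 ± 36.6 CPM, beside 105 ± 17.0 for the 6 within it.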

How the data were processed

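Total RNA from aboveground parts was sequenced as 1 PacBio and 3 ONT Pc libraries. For ONT Pc the authors base-called reads with Guppy, removed short and low-quality reads, used Racon for consensus sequences and GMAP for mapping, estimated transcript counts with Salmon and deposited CPM per gene. The submitters' processing notes also name minimap2 and TAIR10. Whether strand was used in counting is not given in the sources used here. The columns of CK2 and CK3 add to less than that of CK1. Whole reads were therefore recovered from the smallest step of each column (100% of values were whole to within 0.01) and divided by their own sum, giving the rescaled CPM used throughout. No count test was run on these reads because the samples form a single group. For PacBio the authors deposited a list of Pfam families with reference transcripts and isoforms, which holds no measurement and no depth. In 2 places a family ran on to another line, and the parts were joined. Per-sample columns not used numbered 0.

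Spread is the SD over 3 replicates. A ratio between replicates used 0.5 CPM added and at least 20 reads in all. Positions, lengths, names and sequences came from RefSeq TAIR10.1, in which every member was found, 31 with a symbol. Genes named were the 12 highest by mean CPM, the 5 with the largest ratio between replicates, and lists of helper, sensor, paired and partner genes. One gene of the sensor list is not reported here. The members and the lists were chosen with earlier results of these data known. Other minimum values, scalings, filters and left-out replicates were tried. On simulated reads, 100% of 23281 features were recovered. Of 200 genes raised 4-fold in 1 replicate, all drawn from genes with at least 200 reads, 100% passed the 2-fold ratio. So did 1.48% of 17586 unchanged genes. The simulation held counting error only, so the 1.48% leaves out variation between plants and libraries. Python 3.11.15, numpy, pandas, scipy and matplotlib were used.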

Additional observations from a re-analysis of the deposited data

How the results depend on the processing

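Of 30 alternatives, 23 left a result within its spread or within 1.5 times its count. CPM as deposited gave a family share of 0.0953% and a median of 2.13 CPM, in place of 0.169% and 3.68 CPM, because CK2 and CK3 were divided by larger totals. The median was 4.68 CPM with undetected members left out. The number of members over 2-fold between replicates was 14. It was 9 with 1 CPM added and 84 with deposited CPM, where 87.1% of all genes passed. Leaving out 1 replicate gave 1 to 10 such members, 144 to 147 detected members, shares of 0.157% to 0.182% and medians of 3.49 to 3.86 CPM. Scaling each replicate by the median ratio of all genes, leaving out near-identical copies (0.159%) and leaving out the 5 largest loci (242 isoforms) were chosen after seeing the data. With that scaling 12 members passed 2-fold and the median was 3.55 CPM. No paired analysis was possible because all ONT Pc replicates belong to 1 group. Levels rest on 3 replicates, single reads limit genes under 1 CPM, and near-identical or overlapping genes limit the values of single members. The PacBio list has no depth.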
